A study of Hordeum vulgare with 12 samples.

Results

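MLOC_67243, a lipoxygenase gene, and MLOC_71958, a cytochrome P450 gene, were followed in the barley stem base, the short segment at the root junction from which crown roots emerge. They are 2 of the 26073 gene identifiers counted. Both were chosen by their values in the wild-type libraries, in which their transcripts rose from 1 to 10 days after germination (1DAG and 10DAG) and the study had listed them as higher at 10DAG. The wild-type difference between the ages is therefore given below as a description, without a test. The functional annotation of the study places MLOC_67243 under jasmonic acid biosynthesis as a 13-lipoxygenase, and MLOC_71958 under strigolactone biosynthesis as a monooxygenase of the MAX1 type. No entry of that annotation ties MLOC_71958 to salicylic acid. Because the reference gene table used here shares no identifier with the counts, no position, length or sequence is given.

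RNA was sequenced from 12 samples, 3 in each of 4 groups. The wild type was cv. Golden Promise, sampled at 1DAG and at 10DAG. The other genotype was labelled as an AtCKX1-overexpressing line and was sampled at the same ages; the series text speaks of lines with less cytokinin, and cytokinin dehydrogenases such as the one AtCKX1 encodes in Arabidopsis degrade these hormones. The promoter of the transgene and the number of lines behind the 3 samples are not given in the sources used here. In the methods of the study 1DAG seedlings came from moist filter paper and 10DAG seedlings from nutrient solution, each wild-type sample was a pool of seedlings, and the older stem-base segment was longer. Age, medium and segment length cannot be told apart in any comparison of the ages.

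Lipoxygenases insert oxygen into polyunsaturated fatty acids. The 13-lipoxygenases of plastids open the route from linolenic acid to jasmonates, hormones of wounding and defence that also restrain root growth. MAX1, named after an Arabidopsis branching mutant, is a cytochrome P450 that oxidises carlactone, a carotenoid-derived precursor, on the way to strigolactones, which repress shoot branching and shape root systems; cereals carry several MAX1-type genes. An annotation names an enzyme family and does not show what either barley protein makes.

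The libraries held 36100002 to 51997655 reads assigned to genes (median 42479800, rounded). The only Arabidopsis identifier in the counts, AT2G41510, had 7 to 42 reads in the AtCKX1 libraries and 0 in each wild-type library, where a count of 0 allows up to 3 reads. The crown markers CRL1.1 (MLOC_10784) and SCR-like1 (MLOC_6971) were read in every library. Wild-type 1DAG replicate 1 lay farthest from its group, with a median absolute difference of 0.43 (log2) from the other libraries of its group, against 0.14 to 0.30 in the other 11 libraries. Wild-type 10DAG replicate 2 (0.22) did not stand apart by this measure, but it held the highest level of both genes, and differences between the genotypes at 10DAG are also given without it.

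The lipoxygenase gene MLOC_67243 was barely transcribed in the young stem base and clearly transcribed in the older one. Levels are counts per 1000000 reads (CPM), scaled between libraries by TMM, a factor computed from the bulk of the genes. In the wild type at 1DAG the 3 libraries held 17, 19 and 35 reads, or 0.358, 0.460 and 0.882 CPM. At 10DAG they held 1246, 1928 and 1019 reads, or 23.3, 51.5 and 26.0 CPM. All older libraries lay above all younger ones, and replicate 2 stood highest at 10DAG. The group means were 0.567 ± 0.278 and 33.6 ± 15.6 CPM (SD, n = 3 each), a fitted log2 fold change of 5.95, which ranked 83 from the top among the 19773 genes tested in the wild type. Without replicate 2 of 10DAG it was 5.48.

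In the AtCKX1 plants, whose libraries had no part in choosing the gene, MLOC_67243 also rose with age. The 1DAG libraries were at 1.81, 0.541 and 1.59 CPM (78, 25 and 66 reads). The 10DAG libraries were at 13.8, 8.28 and 10.9 CPM (611, 410 and 417 reads), so the ages did not overlap. The means of 1.32 ± 0.679 and 11.0 ± 2.76 CPM (SD, n = 3 each) differed by 3.05 on the log2 scale (standard error 0.48, edgeR quasi-likelihood test, adjusted p = 0.000311), an 8.27-fold rise. A gene was called here when its Benjamini-Hochberg adjusted p was at most 0.05 and its log2 fold change at least 1 in size. By this rule 28.0% of the 20212 genes tested were called in AtCKX1 plants and 15.8% rose, and 34.6% had every 10DAG library above every 1DAG library, so a rise alone was common; MLOC_67243 ranked 637 from the top. In whole segments, fewer cells that transcribe a gene and less RNA per cell cannot be told apart.

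At 10DAG the lipoxygenase gene was at a lower level in AtCKX1 plants than in the wild type, although the difference did not pass the test. The order of the 4 group means was wild type at 1DAG, AtCKX1 at 1DAG, AtCKX1 at 10DAG and wild type at 10DAG. The 1DAG groups overlapped, whereas 9.33% of the genes tested had every AtCKX1 library on the higher side at that age. The 10DAG groups did not, the highest AtCKX1 library (13.8 CPM) lying below the lowest wild-type library (23.3 CPM); 11.5% of the genes tested showed this at 10DAG. The log2 difference, AtCKX1 minus wild type, was -1.63 at 10DAG (95% interval -2.59 to -0.67, edgeR adjusted p = 0.101) and 1.24 at 1DAG (0.10 to 2.38, edgeR adjusted p = 0.252). Few genes were called between the genotypes, 0.505% of those tested at 1DAG (0.163% higher in AtCKX1 plants and 0.341% lower) and 1.24% at 10DAG. With 3 libraries per group these shares do not count all the genes that differ. Before adjustment, 3617 of the 20212 genes at 1DAG and 2767 at 10DAG had an edgeR p under 0.05.

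The age change of MLOC_67243 was smaller in AtCKX1 plants by 2.87 on the log2 scale. This difference of the age effects was -2.87 (standard error 0.68, 95% interval -4.36 to -1.39), with an edgeR p of 0.00128 before adjustment and 0.127 after it, so it was not called; 0.485% of the genes tested were, 0.0792% in this direction. DESeq2 called both the 10DAG difference (-1.60, adjusted p = 0.00982) and the difference of the age effects (-2.85, adjusted p = 0.00156). With both wild-type 1DAG replicate 1 and 10DAG replicate 2 left out, edgeR gave -1.16 (adjusted p = 0.176) and -2.12 (adjusted p = 0.314). The wild-type libraries also served to choose the gene for its large rise, so comparisons against them are not independent of the choice.

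The cytochrome P450 gene MLOC_71958 rose with age too, from a level that was already well covered by reads at 1DAG. In the wild type its libraries were at 4.43, 12.7 and 10.2 CPM at 1DAG (210, 526 and 404 reads). At 10DAG they were at 58.6, 170.9 and 91.1 CPM (3138, 6394 and 3570 reads). Replicate 1 was the lowest at 1DAG and replicate 2 the highest at 10DAG, and the ages did not overlap. The means were 9.11 ± 4.25 and 107 ± 57.8 CPM (SD, n = 3 each), a log2 fold change of 3.61, or 3.07 without replicate 2 of 10DAG.

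In AtCKX1 plants the P450 gene was at 26.8, 5.95 and 16.1 CPM at 1DAG (1153, 275 and 666 reads) and at 54.1, 53.4 and 64.4 CPM at 10DAG (2396, 2642 and 2475 reads). The younger libraries were spread over a 4.50-fold range and the older ones over a 1.21-fold range, with no overlap. The means of 16.3 ± 10.4 and 57.3 ± 6.19 CPM (SD, n = 3 each) differed by 1.80 on the log2 scale (standard error 0.54, edgeR adjusted p = 0.0153), a 3.48-fold rise. It ranked 1812 from the top of the 20212 genes tested. Leaving out 1 library at a time kept the call, with log2 values from 1.39 to 2.35 and a largest adjusted p of 0.0485.

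The group means of the P450 gene stood in the same order as those of the lipoxygenase gene, but its genotypes overlapped at both ages. At 10DAG the 3 AtCKX1 libraries covered 53.4 to 64.4 CPM and the wild-type libraries 58.6 to 171 CPM. AtCKX1 minus wild type was -0.92 (log2, 95% interval -2.07 to 0.24, edgeR adjusted p = 0.485) at 10DAG and 0.86 (-0.33 to 2.04, edgeR adjusted p = 0.385) at 1DAG. The difference of the age effects was -1.77 (-3.42 to -0.12, edgeR adjusted p = 0.666). Single libraries moved these values. Without wild-type 10DAG replicate 2 the difference at 10DAG was -0.37 (edgeR adjusted p = 0.947), and without AtCKX1 1DAG replicate 1 that at 1DAG was 0.27 (edgeR adjusted p = 0.810). With that wild-type library and 1DAG replicate 1 of the wild type both left out, the difference of the age effects was -0.88. Neither DESeq2 nor any other alternative run called any of the 3 differences.

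**Figure D1:**
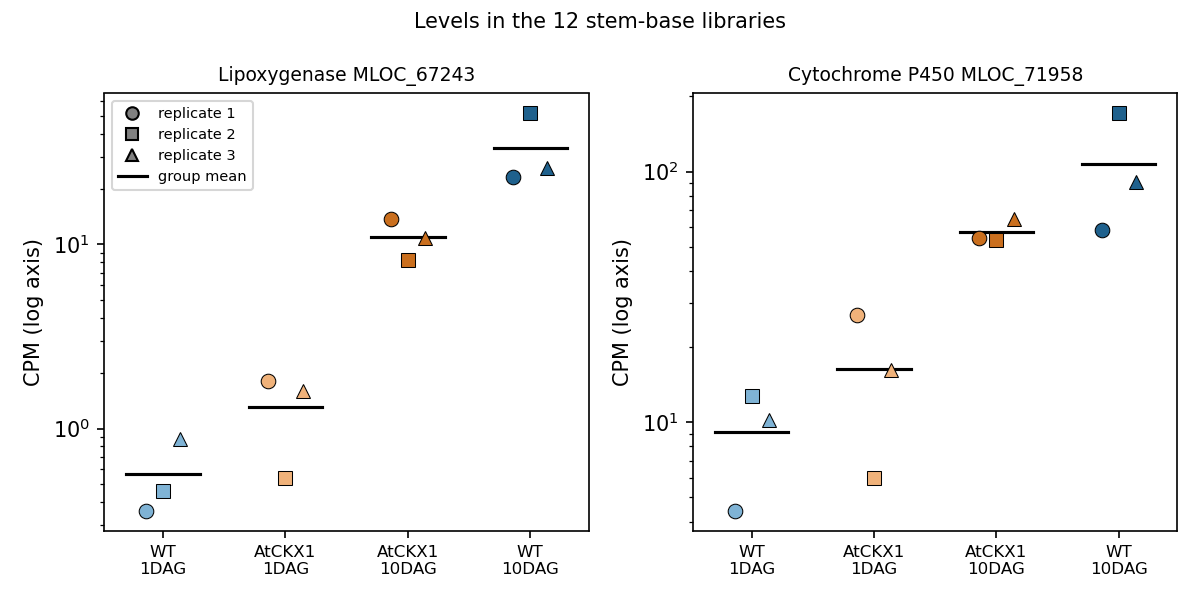
Level in CPM (log axis) of the lipoxygenase gene MLOC_67243 (left) and the P450 gene MLOC_71958 (right) in each of the 12 libraries, with group means as black bars. For the lipoxygenase gene the AtCKX1 libraries at 10DAG (8.28 to 13.8 CPM) lie below the wild-type libraries (23.3 to 51.5 CPM), whereas for the P450 gene these groups overlap.

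**Figure D2:**
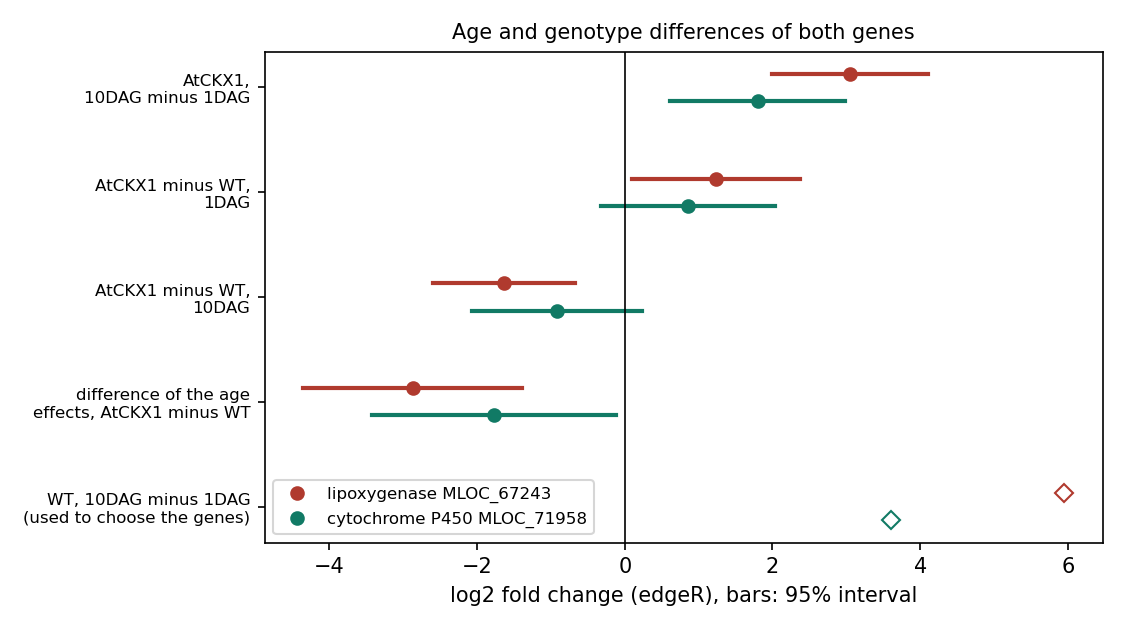
Log2 fold change of both genes in each comparison, with 95% intervals from the fit of 12 libraries; open diamonds mark the wild-type age change, which served to choose the genes and has no interval. The rise in AtCKX1 plants (3.05 and 1.80) is the comparison whose libraries were not used in the choice.

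The genes did not keep a constant proportion to each other. For every read of the lipoxygenase gene there were 11.5 to 27.7 reads of the P450 gene in the wild type at 1DAG and 2.52 to 3.50 at 10DAG. In AtCKX1 plants there were 10.1 to 14.8 at 1DAG and 3.92 to 6.44 at 10DAG. Reads were not divided by gene length, so these numbers follow the proportion between libraries and do not rank the genes. Within groups the genes deviated together in some libraries and not in others. AtCKX1 1DAG replicate 2 was lowest for both genes, by 1.05 (lipoxygenase) and 1.20 (P450) below its group mean on the log2 scale, and wild-type 10DAG replicate 2 was highest for both, by 0.71 and 0.82 above it. In wild-type 1DAG replicate 2, by contrast, the lipoxygenase gene was at -0.18 and the P450 gene at 0.61 from the group mean, and in AtCKX1 10DAG replicate 1 they were at 0.36 and -0.08.

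The other lipoxygenase gene in the study's list, MLOC_60765, carries the same 13-lipoxygenase annotation. At 10DAG it was higher in AtCKX1 plants, whereas MLOC_67243 was lower there without being called by edgeR. The contrast between these 2 genes was not tested. MLOC_60765 was nearly silent at 1DAG, with 0 reads in each wild-type library and 0, 0 and 1 read in the AtCKX1 libraries. At 10DAG the wild-type libraries held 33, 2 and 35 reads (0.616, 0.0535 and 0.893 CPM), and the AtCKX1 libraries 421, 355 and 891 reads (9.51, 7.17 and 23.2 CPM). Every AtCKX1 library thus lay far above every wild-type library at 10DAG. Over the pooled reads, 1667 against 70, the AtCKX1 level was 23.7-fold higher, with a 95% exact binomial interval of 18.7 to 30.6 that covers counting error only. The gene passed the filter on low counts only through the AtCKX1 10DAG libraries, so its fitted test is not reported here. Its call enters only the list counts below. Of the genes tested, 11.7% had every AtCKX1 library above every wild-type library at 10DAG, and 0.653% were called higher.

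With age, the level of MLOC_60765 was at least 23.6-fold higher in the wild type, taken against a floor of 3 reads over the 1DAG group. In AtCKX1 plants the pooled reads of 1667 against 1 gave a ratio of 1708 with an interval of the same kind of 306 to 67519. Too few reads for the default filter kept the gene out of the test of the wild-type ages. In wild-type 10DAG replicate 2 it had only 2 reads, while MLOC_67243 had its most reads of any library there. HTSeq does not count reads that align to more than 1 place (7.02% to 10.3% of all reads), so reads that near-identical lipoxygenase copies share would be missing from both genes.

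The other MAX1-type gene, MLOC_71010, was at a low level throughout. It was at 0.970, 0.629 and 0.605 CPM in the wild type at 1DAG and at 1.94, 3.82 and 1.43 CPM at 10DAG. In AtCKX1 plants it was at 0.650, 0.195 and 0.411 CPM at 1DAG and at 0.565, 1.01 and 0.833 CPM at 10DAG. The AtCKX1 ages overlapped, and the log2 difference of 0.92 did not pass the test (edgeR adjusted p = 0.141). At 10DAG every AtCKX1 library lay below every wild-type library, a log2 difference of -1.59 (edgeR adjusted p = 0.145) that DESeq2 called (-1.57, adjusted p = 0.0424). Without wild-type 10DAG replicate 2 it was -1.06 (edgeR adjusted p = 0.514).

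**Figure D3:**
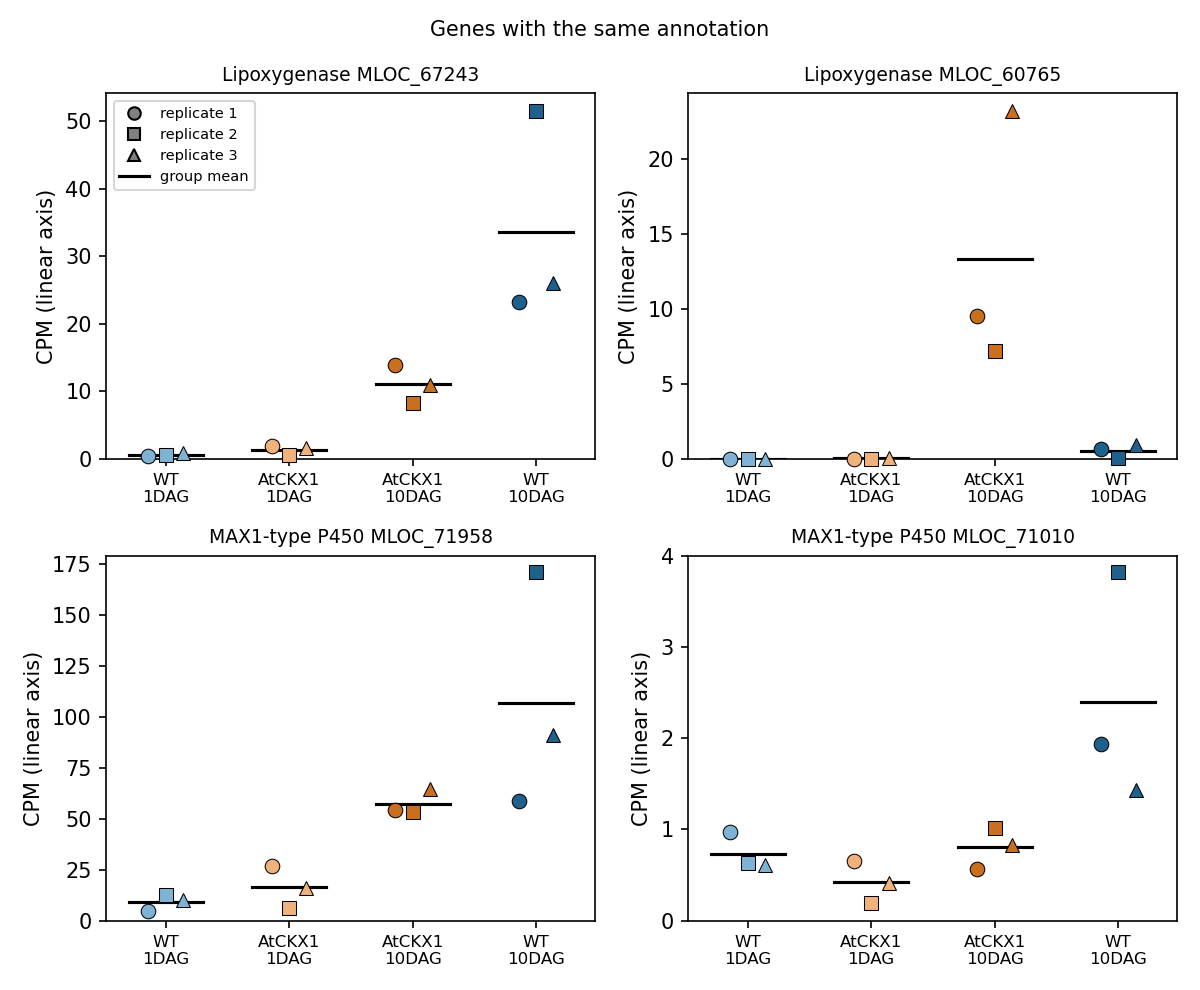
Level in CPM (linear axes that start at 0 and differ between panels) of the 2 genes annotated as 13-lipoxygenases (top) and the 2 annotated as MAX1 (bottom) in each library, with group means as black bars. At 10DAG MLOC_67243 is lower and MLOC_60765 higher in the AtCKX1 libraries than in the wild-type libraries, with no overlap in either panel.

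The rest of the jasmonate pathway was examined in the study's list, which holds genes it had called higher at 10DAG in the wild type, so the direction of a gene in the wild type is not evidence. A rise between the same ages in AtCKX1 plants is also more likely for such genes than for all genes tested. The share called among all genes of that list was not computed, so the counts below do not single out a pathway. Of the 9 jasmonate genes other than MLOC_67243, 7 were called higher with age in AtCKX1 plants, none was lower and 2 were not called; 15.8% of all genes tested were called higher. The 7 include MLOC_60765, which passed the filter only through the group where it is high, so its call adds no support. Its fitted value is also among those behind the median that follows. The 9 genes had a median log2 fold change of 1.11 against -0.01 over all genes tested. In synthesis, beside MLOC_60765, the OPC-8:CoA synthetase gene MLOC_64857, which activates a precursor for chain shortening, rose by 1.11 (log2, edgeR adjusted p = 0.000408). Its call was lost in 2 of the 12 runs with 1 library left out, with a lowest value of 0.93 without AtCKX1 10DAG replicate 1. The gene of 12-oxophytodienoate reductase 3, MLOC_69262, which makes that precursor, went from 38.1 ± 7.25 to 61.7 ± 14.4 CPM (SD, n = 3 each), a log2 difference of 0.68 below the 2-fold limit. Both changes were smaller in size than that of MLOC_67243 (3.05), a contrast that was not tested.

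Among the genes of perception, both coronatine insensitive-like genes, which in Arabidopsis encode the F-box part of the jasmonate receptor, differed by nearly the same amount. MLOC_80547 rose by 1.06 (edgeR adjusted p = 1.23e-05) on the log2 scale and MLOC_4800 was at 0.92, under the limit. MLOC_12120, a TIFY gene of the JAZ repressors, rose by 1.02 (edgeR adjusted p = 0.00445). Its call was lost in 2 of the 12 runs with 1 library left out, with a lowest value of 0.73 without AtCKX1 10DAG replicate 1. The list also holds P450 genes whose Arabidopsis relatives inactivate the active conjugate of jasmonate. MLOC_2968 was called at 3.44 (edgeR adjusted p = 8.04e-05), MLOC_58770 at 1.57 (adjusted p = 0.0115) and MLOC_63814, with 6 to 12 reads at 1DAG and 10 to 131 at 10DAG in these plants, at 2.68 (adjusted p = 0.0412). The call of MLOC_63814 was lost without wild-type 1DAG replicate 2, any of the 3 AtCKX1 1DAG libraries or AtCKX1 10DAG replicate 1 (1.23 without the last), and that of MLOC_58770 without AtCKX1 10DAG replicate 1 (0.88). Without AtCKX1 10DAG replicate 1 only 3 of the 9 genes were called, and without AtCKX1 1DAG replicate 2 only 4. MLOC_60765 is left aside here, since its fitted test is not relied on. None of the others among the 9 was called between the genotypes at either age by edgeR.

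Of the 4 strigolactone genes other than MLOC_71958, 2 were called higher with age in AtCKX1 plants and 2 were not, against 15.8% of all genes tested called higher. These genes, too, had been listed by the study as higher in the wild type, so the share over all genes is not a matched one. MLOC_4044, a gene for the F-box protein MAX2 that carries the strigolactone signal, rose by 1.25 (log2, edgeR adjusted p = 3.53e-05). MLOC_52497, a hydrolase gene that the study's table matches to D14, the strigolactone receptor of rice, rose by 2.31 (edgeR adjusted p = 0.00171). MLOC_55474, for the carotenoid cleavage dioxygenase CCD7 that acts before MAX1, was at 2.02 ± 0.0879 CPM at 1DAG and 3.51 ± 1.00 CPM at 10DAG (SD, n = 3 each), a log2 difference of 0.79. The median over the 4 genes was 1.09. None of them was called between the genotypes at either age by edgeR.

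Salicylic acid had 2 genes in the same list, which the study chose as higher at 10DAG in the wild type. Both were called higher with age in AtCKX1 plants, against 15.8% of all genes tested, a share not matched to genes chosen this way. MLOC_44478, annotated as a salicylic acid 3-hydroxylase (DLO), an enzyme that degrades the hormone, went from 1.20 ± 0.734 to 34.3 ± 13.9 CPM (SD, n = 3 each), by 4.82 on the log2 scale (edgeR adjusted p = 7.48e-05). MLOC_51588, an NPR1-like gene of the salicylate receptors, rose by 1.45 (edgeR adjusted p = 2.95e-05). In the wild type these were at 6.33 and 1.69. Neither was called between the genotypes by edgeR.

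**Figure D4:**
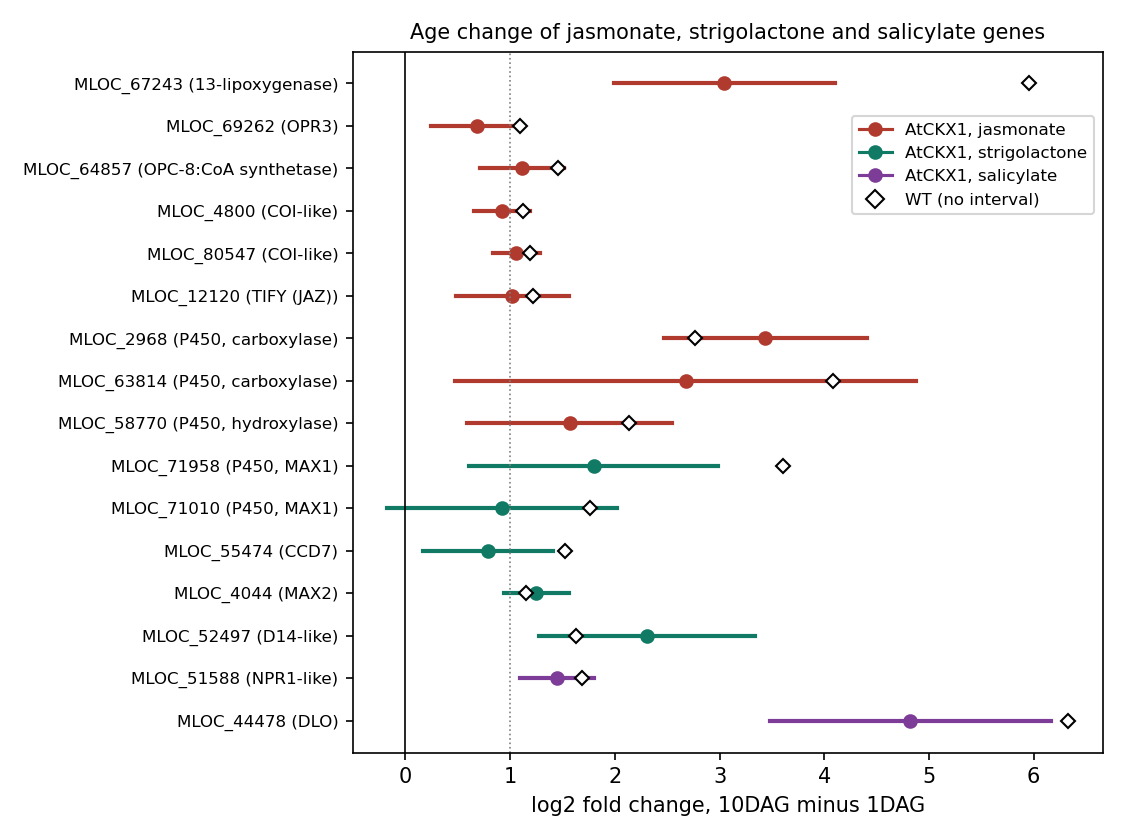
Log2 fold change from 1DAG to 10DAG of the jasmonate, strigolactone and salicylate genes in AtCKX1 plants (filled points, 95% intervals) and in the wild type (open diamonds, a description with no interval because the study chose the genes on these values). MLOC_60765 is left out because 1 read at 1DAG gives no usable fitted value; the dotted line is the 2-fold limit, and the AtCKX1 values run from 0.68 for MLOC_69262 to 4.82 for MLOC_44478, with MLOC_67243 at 3.05 and MLOC_71958 at 1.80.

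Genes of 3 other groups were taken from the same list of the study, whose members were chosen as higher at 10DAG in the wild type. With age in AtCKX1 plants 15.8% of all genes tested were called higher, a share not matched to genes chosen this way. Of 9 protease inhibitor genes, a class that jasmonates induce in many plants, 7 were called higher; the trypsin inhibitor genes MLOC_19118 (4.59) and MLOC_39668 (4.09) changed most on the log2 scale. MLOC_39668 was also lower in AtCKX1 plants at 1DAG (-1.03, edgeR adjusted p = 0.0317). At 10DAG it was at -0.82 (edgeR adjusted p = 0.0384), not called because this lay below the 2-fold limit. All 6 of the other cytochrome P450 genes in the list were called higher, and 4 to 6 of them with 1 library left out. Their median was 2.56, against 1.80 for the P450 gene MLOC_71958. The abscisic acid hydroxylase gene MLOC_69371 (2.85) rested on AtCKX1 10DAG replicate 3, its 10DAG libraries holding 51, 27 and 196 reads. Its call was lost without that library (1.42, edgeR adjusted p = 0.166), AtCKX1 1DAG replicate 1 (2.44) or AtCKX1 1DAG replicate 3 (2.91). MLOC_4786 (2.78), annotated alike, kept its call with each library left out. Its AtCKX1 10DAG libraries were nevertheless spread from 11.0 CPM in replicate 2 to 84.4 CPM, against at most 9.17 CPM at 1DAG. Of 12 photosynthesis genes, taken as markers of green tissue, 9 were called higher, among them the photosystem II gene MLOC_37052 (3.89) and the transketolase gene MLOC_21709 (2.77).

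The summed level of the 12 photosynthesis genes moved with age, from 174 to 288 CPM in the wild type at 1DAG to 863 to 1067 CPM at 10DAG. In AtCKX1 plants it went from 191 to 224 CPM up to 1206 to 1317 CPM. No marker was at 0 in any library. The higher sum of AtCKX1 plants at 10DAG came from 1 gene, MLOC_37052. Without it the sums of the other 11 genes overlapped, at 345 to 386 CPM in AtCKX1 plants and 331 to 442 CPM in the wild type. Between the genotypes at 10DAG 8 of the 12 genes had negative log2 differences, with a median of -0.10. Single markers did differ: MLOC_68131 was called higher in AtCKX1 plants (1.11, edgeR adjusted p = 0.0228) and MLOC_69236 lower (-1.97, edgeR adjusted p = 0.0293). The other 10 were not called. Of all genes tested, 0.653% were called higher and 0.584% lower at that age. At 1DAG the sum without MLOC_37052 was lower, at 118 to 146 CPM in the wild type and 132 to 178 CPM in AtCKX1 plants. The part of green tissue in the age changes was not tested. The crown marker CRL1.1 had a log2 change of -1.22 with age in AtCKX1 plants (edgeR adjusted p = 0.000404), and SCR-like1 one of 1.47 (edgeR adjusted p = 2.25e-05).

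The genes whose course over the 12 libraries was most like that of MLOC_67243 were mostly undescribed. Likeness was taken as the root-mean-square difference between log2 CPM profiles after removal of each gene's mean, a description that draws on all libraries. Profiles were not scaled by how much a gene varies, so distances tend to be larger for a gene with larger changes. The nearest were MLOC_70903 (0.52), MLOC_62496 (0.54), MLOC_67318 (0.57), MLOC_7036 (0.57) and MLOC_73481 (0.58), the last annotated as a leucine-rich repeat protein of the polygalacturonase inhibitor type. The next with a description were MLOC_34835 (0.64), for a lactone oxidase of ascorbate metabolism, and MLOC_57236 (0.68), for a sugar transporter.

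Profiles close to that of MLOC_71958 were closer still, and more of them were described. MLOC_72076 (0.35) and MLOC_70921 (0.37) had no description, and MLOC_56180 (0.38) is a putative kinase gene of the lectin type. MLOC_21524 (0.40) encodes a bHLH transcription factor and MLOC_66348 (0.41) a NAC transcription factor. From 1DAG to 10DAG the mean log2 CPM of these 5 genes rose by 2.83 to 3.68 in the wild type and by 1.82 to 2.12 in AtCKX1 plants. The 5 genes were picked for profiles like that of MLOC_71958, so age changes like its own follow from the choice and are no separate result. The lipoxygenase and P450 profiles themselves differed by 0.96. Of the 20212 genes tested, 1142 were nearer to the P450 gene than the lipoxygenase gene was. For the lipoxygenase gene, 143 were nearer to it than the P450 gene was. Its changes were larger than those of the P450 gene, so the distances and counts of the genes are not on a like scale.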

How the data were processed

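Stem-base RNA of 12 samples was sequenced, 3 per group. According to the study's methods and the submitters' processing notes, the authors quality-trimmed the reads and used TopHat with the cv. Morex assembly (IBSC_v1), then HTSeq 0.6.0 for strand-specific counts per gene, and compared ages with DESeq2. The deposited values are raw counts per gene, not normalized; 22.1% to 24.4% of the reads per library fell outside genes and were left out.

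The tests on these counts used edgeR 4.0.16 under R 4.3.3 (filterByExpr, TMM, robust quasi-likelihood test, Benjamini-Hochberg adjustment over all genes tested). AtCKX1 ages, genotypes and the difference of age effects came from 1 fit of 12 libraries with 4 group means, which share an estimate of the spread; wild-type ages came from the 6 wild-type libraries. Standard errors are approximate. An exact permutation test of 3 against 3 cannot give a two-sided p below 0.1. Depth was 36100002 to 51997655 reads in genes. The fits were also run on simulated counts with 200 changed genes and the same spread for every gene. That run does not cover genes that vary more between libraries.

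Genes named are both members, all listed jasmonate, strigolactone and salicylate genes, up to 2 genes with the largest AtCKX1 age change in each other list, the nearest profiles, the crown markers and the transgene identifier. Members and lists were chosen with earlier results of these data known. Alternatives were DESeq2 1.42.0, other scalings, no filter, no fold limit, a replicate block, fits on other sets of libraries, and leaving out every library in turn. For AtCKX1 samples, separate cultures are not stated, so p-values measure only the spread between samples.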

Additional observations from a re-analysis of the deposited data

How the results depend on the processing

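The rise of MLOC_67243 and MLOC_71958 in AtCKX1 plants was called under every alternative run. Leaving out 1 library at a time gave 2.66 to 3.34 and 1.39 to 2.35 (log2). DESeq2 called the lower level of MLOC_67243 in AtCKX1 plants at 10DAG (-1.60) and its smaller age change (-2.85), which edgeR did not; the cause was not tested. MLOC_71958 differed between the genotypes by 0.27 to 1.26 at 1DAG and by -1.21 to -0.37 at 10DAG with 1 library left out. The jasmonate count of 7 ranged from 3 to 7 over the libraries left out. That count includes MLOC_60765, whose call adds no support. The number of genes called varied. For the AtCKX1 ages it was 5664, and 10866 without the fold limit. Between the genotypes at 1DAG it was 102, against 737 with DESeq2, 63 with the replicate block, 42 with only the 6 libraries compared in the fit and 51 to 250 with 1 library left out. At 10DAG it was 250, against 536 with DESeq2 and 123 to 506 with 1 library left out. For the difference of the age effects it was 98, against 293 with DESeq2, 47 with the replicate block and 34 to 123 with 1 library left out.

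The replicate numbers were not shown to pair the samples, since deviations of same-numbered libraries correlated over genes at -0.10 to 0.07 between the AtCKX1 ages, -0.10 to 0.18 between the genotypes at 1DAG, -0.19 to -0.01 between them at 10DAG and -0.29 to 0.36 between the wild-type ages. In no pair of groups did every library correlate best with its own number. With the replicate block MLOC_63814 was no longer called (2.57, edgeR adjusted p = 0.0869). The rise of both genes described here in AtCKX1 plants stayed called. Their genotype differences and differences of the age effects stayed not called. With 17 to 35 reads per wild-type library at 1DAG, depth limits the precision of the lipoxygenase level there.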
